A study of Mus musculus with 2 samples.

Results

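The mitochondrial ribosomal protein genes were taken as every gene of the deposited expression files whose symbol begins with Mrpl or Mrps and a digit. This gave 76 genes of 23284, of which 47 carry large subunit symbols (Mrpl) and 29 carry small subunit symbols (Mrps). They were described in leukemic stem cells (LSCs) from mice with a BCR-ABL-driven chronic myeloid leukemia (CML), where the study asked what the loss of the adaptor protein STAP-1 changes. The WT library came from bone marrow progenitors of C57BL/6J mice and the STAP-1 KO library from progenitors of STAP-1-deficient mice, both transduced with a BCR-ABL and GFP retrovirus and transplanted into irradiated recipients. In both groups the LSCs were sorted as GFP+ CD45.2+ lineage-negative Sca-1+ c-Kit+ cells at day 11 after the first transplantation, from mice of 8 to 14 weeks of age. Both groups therefore carried the BCR-ABL oncogene and differed in Stap1, which was absent from the donor cells of the KO group. Polyadenylated RNA was amplified as full-length cDNA and read as 75-base single reads. There was 1 library of each genotype, and whether animals were pooled was not given in the sources used here. No difference below therefore has a replicate check, and genotype, animal, sort and library preparation cannot be told apart.

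The mitochondrial ribosome (mitoribosome) makes the few proteins that mitochondrial DNA encodes, all of them core parts of the respiratory chain and ATP synthase. Its ribosomal RNAs come from mitochondrial DNA, while all its proteins are encoded in the nucleus, made in the cytosol and imported. Many of these proteins have a bacterial counterpart and others are particular to mitochondria, and the large subunit joins amino acids while the small subunit reads the mRNA. Blood stem cells are known to keep low mitochondrial activity, and CML stem cells have been described as relying more on oxidative metabolism.

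The genes lie on 17 autosomes with none on the X chromosome. RefSeq promoter windows (GRCm38.p6, 250 bases before to 50 after each annotated start) were matched for 67 of the 76, and 6 short motifs were searched on both strands. They were CCGGAAG of the ETS family, to which GABPA belongs, the NRF1 core CGCATGCG, AAGATGGC of YY1, the GC box GGGCGG of SP1, the E-box CACGTG that MYC can bind, and the cyclic AMP response element TGACGTCA. There were 2 pairs of overlapping matches of different motifs. The windows below hold the 120 bases before the start of 4 members, with whole matches to any of the 6 motifs in capitals. Mrpl22 is shown because it carries the ETS and NRF1 letters side by side, Mrps22 and Mrpl47 as the members with the highest ratios of their subunits, and Mrpl52 as the member with the lowest ratio among the 75 whose mean over both libraries reached 1 FPKM (fragments per kilobase of transcript, scaled to library size).
Mrpl22, chr11:58171544-58171663, plus strand: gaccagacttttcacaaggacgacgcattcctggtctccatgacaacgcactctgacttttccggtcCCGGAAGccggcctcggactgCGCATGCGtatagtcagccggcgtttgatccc
Mrps22, chr9:98601680-98601799, minus strand: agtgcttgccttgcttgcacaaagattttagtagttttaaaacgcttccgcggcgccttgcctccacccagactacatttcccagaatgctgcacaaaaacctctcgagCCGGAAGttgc
Mrpl52, chr14:54426789-54426908, plus strand: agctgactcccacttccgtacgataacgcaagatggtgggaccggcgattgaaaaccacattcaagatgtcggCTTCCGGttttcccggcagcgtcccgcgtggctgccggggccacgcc
Mrpl47, chr3:32736756-32736875, minus strand: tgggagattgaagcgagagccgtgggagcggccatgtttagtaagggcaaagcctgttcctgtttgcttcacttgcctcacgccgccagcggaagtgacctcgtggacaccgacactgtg

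The ETS letters were in the windows of 24 of 67 members, or 35.8%, against 9.93% of all 27025 genes with a window and 21.4% of the 7891 of these that reached this mean. The YY1 letters were in 12 members, or 17.9%, against 3.19% of all genes and 5.53% of the expressed ones. The NRF1 core was in 7 members, or 10.4%, against 2.07% and 4.70%. YY1 matches often lay within the transcribed part, as 8 of the 12 began at or after the annotated start, whereas no NRF1 match did. SP1 letters were in 49.3% of members, between the 38.2% of all genes and the 69.2% of expressed genes. E-boxes were in 5 members, or 7.46%, against 8.09% of all genes and 12.4% of expressed ones. The cyclic AMP response element was in 2 members, or 2.99%, against 2.03% and 3.73%. At least one of the ETS, NRF1 and YY1 motifs was in 36 members, or 53.7%, against 29.0% of expressed genes, and 15 members held none of the 6. The cytosolic ribosomal protein genes had a like share with ETS letters, 37.7% of 61, and a lower share with YY1 letters, 9.84%. Of 66 respiratory chain and ATP synthase genes, 24.2% held the ETS letters, 13.6% the YY1 letters and 13.6% the NRF1 core, the last above the share of the members. These are matches of letters, not evidence of binding.

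Mrpl46 of the large subunit and Mrps11 of the small subunit are neighbours on chromosome 7, where they are read in opposite directions from annotated starts only 42 bases apart (78783089 and 78783131). It was the only pair of members with starts closer than 1000 bases. Mrpl46, a protein of the central protuberance, had 43.4 FPKM in WT and 100.8 FPKM in STAP-1 KO, and Mrps11 had 24.0 and 47.4 FPKM. Both were therefore higher in the KO library, by ratios of 2.32 and 1.98, but 173 bases of Mrps11 exons overlap those of an annotated transcript of Mrpl46 other than the one used here, so the values may share reads.

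Stap1 itself stood at 61.9 FPKM in WT and 0.309 FPKM in KO, as its label requires. The number of reads behind the values was estimated from the spacing of low FPKM values at 7500000 for WT and 10470000 for KO. Of the stem cell markers used in the sort, Kit was at 468 and 30.1 FPKM and Ly6a, the gene of Sca-1, at 285 and 106 FPKM. The T cell marker Cd3e was at 0.869 and 1.09 FPKM. Mast cell markers were much lower in the KO library. All 11 of the list with a mean of at least 1 FPKM, of 12, were at least 2-fold lower, against 22.9% of all genes. The summed level of the list was 53745 FPKM in WT and 5443 FPKM in KO, which was 8.28% and 0.901% of all FPKM. The smallest fold difference was that of the protease Mcpt8 (2801 and 993 FPKM), and the largest fold difference was that of the tryptase Tpsab1 (430 and 8.74 FPKM). Primary granule markers were mostly higher, 7 of 9 by at least 2-fold, against 12.3% of all genes, with a summed level of 581 and 4688 FPKM. Ms4a3 had 41.5 and 460 FPKM and Prtn3 had 57.4 and 525 FPKM, whereas Gfi1 had 8.19 and 12.7 FPKM and Fcnb was lower in KO, with 1.72 and 0.448 FPKM. The part of these differences between the libraries in the results below was not tested. In bulk RNA a different share of cells of a type cannot be told apart from a different amount of RNA per cell.

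Nearly every mitochondrial ribosomal protein gene had its higher level in the KO library. Of the 76 genes, 75 reached a mean of 1 FPKM over the libraries and are called expressed below, and all 75 had the higher value in KO, where 48.3% of all 10974 such genes did. Their median level was 44.0 FPKM in WT and 91.1 FPKM in KO, and their summed level was 4275 and 7780 FPKM, a ratio of 1.82. The set thus made up 0.659% of all FPKM in WT and 1.29% in KO. On the scale log2((KO + 0.1)/(WT + 0.1)), called the log2 ratio below, the median of the 75 was 0.93, beside −0.04 over all 10974 genes.

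The differences were moderate in size and alike among the members. At least 2-fold higher in KO were 30 of the 76, or 39.5%, against 12.3% of the 12507 genes with at least 0.1 FPKM in both libraries. After subtraction of the median of genes of like length, described below, 13 members passed, against 11.4% of all genes. None was at least 2-fold lower, against 22.9% of those genes. A 1.5-fold cut-off took in 68 members, where 25.6% of all genes passed, and a 4-fold cut-off took in none, where 2.4% passed. The ratio lay between 1.5 and 2.5 in 67 of the 75. Log2 ratios ran from 0.07 to 1.38 with an SD of 0.26 among the members. The SD among all genes was 1.41, with extremes of −15.82 and 17.12. In lists described below the SD was 0.28 for mitoribosome proteins of other symbols, 0.31 for assembly factors and 0.37 for DNA replication. It was 0.61 for the respiratory chain and 0.97 for the cytosolic ribosome. The root mean square error from counting reads was 0.11 for these genes, which is a lower limit of the error, so how far the members differ among themselves beyond error is not known without replicates.

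A 95% interval for counting error only was computed for each ratio from the estimated reads, and since amplified reads without molecular identifiers are not independent molecules, it is a lower limit of the error. By this interval 73 of the 75 log2 ratios lay above 0, Mrpl52 and Mrps36 being the exceptions. The interval lay wholly above 2-fold for 11 members, held 2-fold for 34 and lay wholly below it for 30. For the 34 of the 75 that held it, counting error alone does not settle on which side of 2-fold they lie. Levels kept their order between the libraries, with a correlation of log2 FPKM across the 75 genes of 0.97 (Pearson) and a rank correlation of 0.96 (Spearman), over genes that share both libraries.

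**Figure D1:**
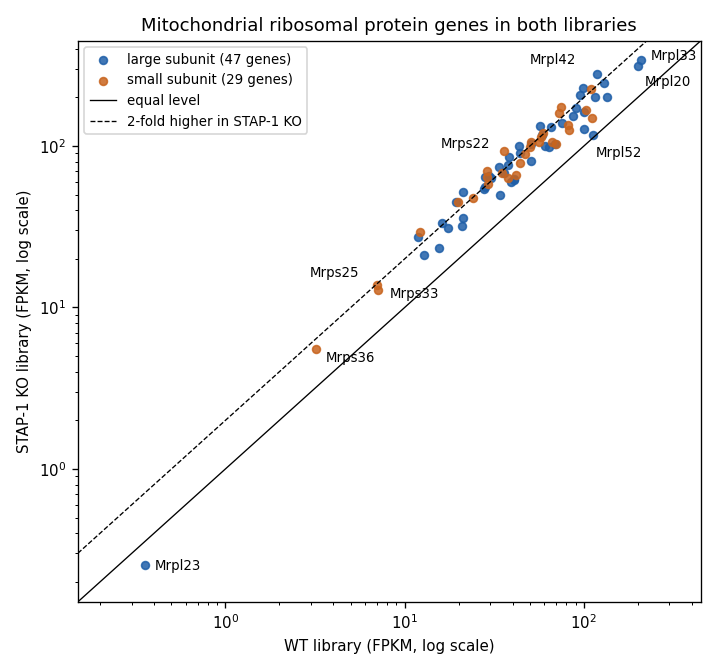
Level of each of the 76 genes in the WT library (horizontal) and the STAP-1 KO library (vertical), in FPKM on log scales, with large subunit genes in blue and small subunit genes in orange. All points but Mrpl23 lie above the line of equal level, most of them close to the dashed line of a 2-fold higher level.

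The large subunit genes had a median of 43.7 FPKM in WT and 88.2 FPKM in KO over the 46 that were expressed. The median of the 29 small subunit genes was 47.0 and 93.1 FPKM. The summed ratio was 1.797 for the large and 1.86 for the small subunit. Median log2 ratios were 0.92 and 0.97, a difference of −0.05. The interquartile range of the genes ran from 0.64 to 1.11 in the large and from 0.76 to 1.07 in the small subunit. Past the 2-fold cut-off were 19 of the 47 large subunit genes (40.4%) and 11 of the 29 small subunit genes (37.9%). Of all genes 12.3% passed it. After the length adjustment described below, 9 and 4 passed, against 11.4% of all genes. Large subunit genes made up 66.2% of the summed level of the members in WT and 65.4% in KO. The ranges of the subunits thus overlapped over most of their extent, and whether the medians differ could not be tested with 1 library of each genotype.

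Mrpl33, whose bacterial counterpart is a small protein of the large subunit, had the highest level of all members in both libraries, with 209 FPKM in WT and 342 FPKM in KO. Mrpl20 followed with 201 and 313 FPKM. By the mean of both libraries Mrpl42, a protein particular to mitochondria, came next with 118 and 279 FPKM, although Mrpl36 (134 FPKM) and Mrpl18 (130.0 FPKM) were above it in WT. Each was higher in KO, but Mrpl42 by a ratio of 2.37 and the others by 1.64 and 1.55. Exons of Mrpl33 overlap those of Gm43809 by 177 bases, so that reads there are not certain to be its own.

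Beside Mrpl42, high ratios in the large subunit were those of Mrpl47, Mrpl12, Mrpl2 and Mrpl46, which with it ranked highest at a pseudocount of 1 FPKM. Without a pseudocount Mrpl21 ranked among them, with 19.2 and 44.7 FPKM (ratio 2.33) and a lower limit of its interval of 0.94. Exons of Mrpl21 overlap those of Ighmbp2 by 117 bases, and a copy, D9Wsu149, matches it over 565 bases. Mrpl47, a protein near the exit of the tunnel through which the new chain leaves, had 21.3 FPKM in WT and 52.1 FPKM in KO, a ratio of 2.45. Its exons overlap those of Actl6a and Ndufb5, by up to 452 bases. Mrpl12 forms the flexible stalk that recruits translation factors, and it had 98.7 and 229 FPKM, a ratio of 2.32. Its exons overlap those of Gm16755 by 200 bases. Mrpl2, near the site where peptide bonds are formed, had 57.2 and 133 FPKM, a ratio of 2.33. Intervals of Mrpl42, Mrpl47, Mrpl12, Mrpl2 and Mrpl46 lay wholly above 2-fold.

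At the other end, Mrpl52 was nearly level, with 112 FPKM in WT and 117 FPKM in KO. Its ratio of 1.05 rested on about 176 and 258 estimated reads, and its counting interval on the log2 scale ran from −0.21 to 0.34. Mrpl14, at the face where the subunits join, was at 99.97 and 126.9 FPKM, a ratio of 1.27, and 106 bases of its exons are shared with Tmem63b. Mrpl45, which holds the ribosome at the inner membrane, had 34.0 and 50.1 FPKM (ratio 1.48), Mrpl17 of the tunnel exit had 15.6 and 23.4 FPKM (ratio 1.499), and Mrpl4, which lines the tunnel, had 68.6 and 102.9 FPKM (ratio 1.4995). The intervals of these last 4 genes lay above 0 and below 2-fold, by counting error alone, and both groups were named for their ratios.

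Mrpl23 was the one member at a mean under 1 FPKM, with 0.357 FPKM in WT and 0.256 FPKM in KO. Both values correspond to about 1.3 estimated reads, which is under the 3-read floor, and no fold is given. A near-identical copy, Mrpl23-ps1, matches it over 540 bases, and the level of the protein's mRNA is therefore uncertain here.

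By the mean of both libraries, the highest levels in the small subunit were those of Mrps18c (110 FPKM in WT and 224 FPKM in KO), Mrps16 (102.5 and 166 FPKM) and Mrps21 (111 and 148 FPKM). Mrps18c was 2.04-fold higher, Mrps16 was 1.62-fold higher and Mrps21 was 1.34-fold higher. Mrps21 had the lowest ratio of this subunit, and a near-identical copy, Gm6181, matches it over 264 bases. The next lowest were Mrps24 (70.1 and 102.4 FPKM, ratio 1.46), Mrps6 (82.3 and 125 FPKM, ratio 1.52), Mrps17 (66.4 and 105 FPKM, ratio 1.59) and Mrps23 (41.8 and 66.5 FPKM, ratio 1.59). Except for Mrps23 these have a bacterial counterpart. Exons of Mrps6 overlap those of Slc5a3 and Gm49711, by up to 305 bases.

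The highest ratio of all members was that of Mrps22, a protein particular to the mitochondrial small subunit that is mutated in human mitochondrial disease, with 35.7 FPKM in WT and 93.1 FPKM in KO. Its ratio was 2.60, and the interval of its log2 ratio ran from 1.18 to 1.58. Mrps10 had 28.7 and 69.8 FPKM (ratio 2.43), Mrps31 had 12.2 and 29.2 FPKM (ratio 2.40), and Mrps12, a protein of the decoding site, had 74.6 and 175 FPKM (ratio 2.34). Mrps27, which carries the RNA-binding repeats of the pentatricopeptide family, had 28.7 and 64.5 FPKM (ratio 2.25). A copy named AC154457.3 matches Mrps10 over 555 bases, and 417 bases of Mrps27 exons are shared with 6430562O15Rik. Of these 5 the intervals of Mrps31 and Mrps27 reached below 2-fold, with lower limits of 0.97 and 0.996 on the log2 scale.

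**Figure D2:**
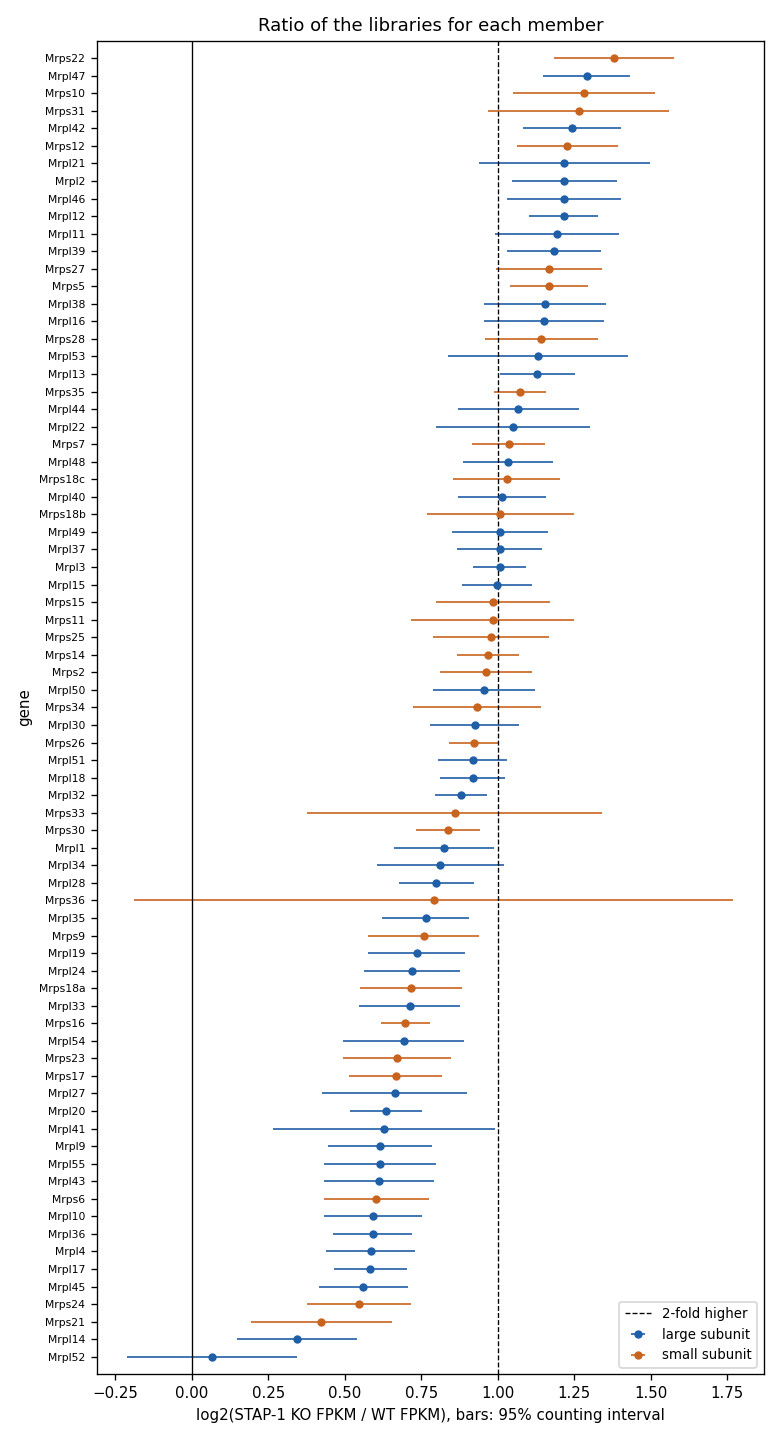
Log2 ratio of the KO to the WT level of the 75 expressed genes, sorted, with blue for the large and orange for the small subunit and bars for the 95% interval of counting error. Genes of both subunits are mixed along the whole range from Mrpl52 at 0.07 to Mrps22 at 1.38, and the bars of Mrpl52 and Mrps36 reach 0.

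Symbols do not in every case match the place of the protein. By structure, Mrps18a and Mrps30 belong to the large subunit, and they had 81.7 and 134 FPKM (ratio 1.64) and 43.9 and 78.5 FPKM (ratio 1.79). Mrps36 is not a mitoribosome protein by structure but part of the 2-oxoglutarate dehydrogenase complex. It had 3.19 FPKM in WT and 5.52 FPKM in KO, the lowest level of the 75, and its counting interval ran from −0.19 to 1.77 on the log2 scale. Copies named Mrps36-ps1 and Mrps36-ps2 match Mrps36 over up to 309 bases, and exons of Mrps30 overlap those of B430218F22Rik by 601 bases. With these 3 genes placed by structure the median log2 ratios of the large and small subunits were 0.90 and 0.97.

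Some sites of the ribosome can be described apart, with counts past 2-fold to be read against the 12.3% of all genes. The 5 genes of the L1 and L7/L12 stalks (Mrpl1, Mrpl10, Mrpl11, Mrpl12 and Mrpl53), which move tRNAs and recruit factors, had a median log2 ratio of 1.13, with 3 past 2-fold. Among these 3, Mrpl53 shares all 695 bases of its transcript with exons of Gm42688. The 8 expressed genes of the tunnel exit had 0.96, with 4 past 2-fold, and the 7 of the central protuberance had 1.01, also with 4. Among large subunit genes, the 17 particular to mitochondria had a median of 1.01 with 10 past 2-fold, and the 29 expressed genes with a bacterial counterpart had 0.81 with 9 past 2-fold. In the small subunit the medians were 0.99 for the 10 genes particular to mitochondria and 0.97 for the 16 with a bacterial counterpart, with 5 and 6 past 2-fold. The SD among genes within these groups was between 0.21 and 0.31, and the differences between the groups were not tested.

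The length of the transcript mattered for the libraries as a whole and had to be kept in mind. Over 10485 expressed genes with a RefSeq mRNA (mean of 1 FPKM or more), log2 ratios had a rank correlation of −0.41 with the length of the longest mRNA, so that long transcripts tended to have the lower value in KO. Mitochondrial ribosomal protein genes are short, with a median of 1226 bases where that of all these genes was 2911. Large and small subunit genes were alike in length, with medians of 1284 and 1197 bases and 30.4% and 27.6% of genes longer than 2000 bases.

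Among the members the trend was not seen. Their log2 ratios had a rank correlation with length of 0.17 over 75 genes, 0.12 over the large and 0.18 over the small subunit. Up to 1000 bases the 24 members had a median log2 ratio of 0.71, compared with 0.51 for 660 genes of that length. From there to 2000 bases it was 1.01 for 29 members and 0.44 for 2310 genes, and up to 4000 bases it was 0.94 for 14 members and 0.03 for 4393 genes. Above 4000 bases it was 0.98 for 8 members and −0.73 for 3122 genes, of which 23.9% were higher in KO. The distance between members and other genes of their length was thus smallest for the short transcripts and widened with length, as the median of other genes fell and that of the members did not.

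The 8 longest members, named for their length alone, were Mrps35, Mrpl15, Mrps26, Mrpl48, Mrps5, Mrpl19, Mrps25 and Mrpl17. Mrps5, with a transcript of 4481 bases, had 19.9 FPKM in WT and 44.7 FPKM in KO, a ratio of 2.25. Mrps25, with 6073 bases, had 6.97 and 13.7 FPKM, a ratio of 1.97. Exons of Mrps25 share 4590 bases with Nr2c2 and a copy, Gm42933, matches it over 2070 bases, Mrps5 has a copy, Gm13328, over 1019 bases, and Mrpl19 shares 1962 bases with Gcfc2, so the values of these genes are uncertain. Of the 8, Mrpl15, Mrps35 and Mrpl17 had neither an overlap nor a copy. Mrps35 had 50.5 and 106 FPKM (ratio 2.10) and Mrpl15 had 28.1 and 56.1 FPKM (ratio 1.997). Even Mrpl17, with the longest transcript of 7300 bases, was 1.499-fold higher, although the median log2 ratio of genes of its length was −0.99. At the short end, Mrpl52 (418 bases), Mrpl33 (478 bases) and Mrps21 (488 bases) had ratios of 1.05, 1.64 and 1.34. Lengths are those of the longest annotated mRNA, with only 1 RefSeq mRNA for 62 of the 76 genes, and the form used in these cells was not measured.

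**Figure D3:**
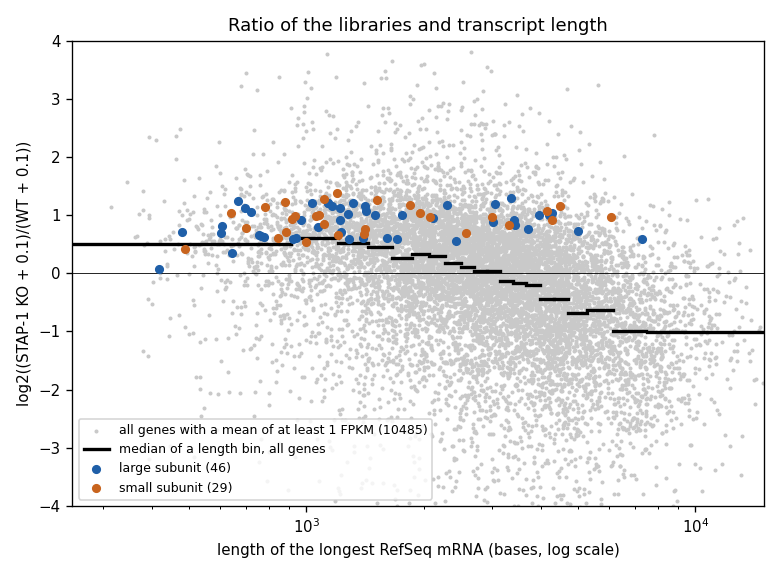
Log2 ratio of the KO to the WT library against the length of the longest RefSeq mRNA on a log scale, with every gene at a mean of 1 FPKM or more in grey, the median of each of 20 length bins as black lines, and large and small subunit genes in blue and orange. The black lines run from 0.50 for the shortest to below 0 for long transcripts, while members of both subunits stay between 0.07 and 1.38 at every length; grey points beyond a log2 ratio of 4 in either direction are not drawn.

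For each gene the median log2 ratio of its length bin (20 bins over all genes) was subtracted. The median of the members then fell to 0.55, and 69 of the 75 stayed above 0, against 49.9% of all genes. Because the ratios of the members did not fall with length, the subtraction gave them a length trend. Their adjusted values had a rank correlation with length of 0.73 over the 75 genes, compared with 0.17 before. The large and small subunits had 0.55 and 0.59. Of the 13 members left with a length-adjusted log2 ratio of at least 1, 9 were among the 47 of the large and 4 among the 29 of the small subunit, where 11.4% of all genes passed, so the share of the small subunit was near that of all genes. The 6 members at or below 0, named for these values, were Mrpl52 (−0.43), Mrpl14 (−0.16), Mrps21 (−0.08), Mrps24 (−0.07), Mrpl36 (−0.02) and Mrpl55 (0.00), each with a transcript of under 1000 bases. The highest were Mrps5 (1.61), Mrps25 (1.60) and Mrpl17 (1.57), each longer than 4000 bases, with the first and second of these uncertain by their copies or overlaps. When GC content was taken off as well, the medians were 0.63 for the large and 0.57 for the small subunit, so the sign of the small difference between the subunits turned.

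Ratios were also compared between members with and without a motif. The 24 members with ETS letters had a median log2 ratio of 0.92 and the 42 expressed members without them had 0.96. With and without the NRF1 core the medians were 0.88 and 0.92, with and without YY1 letters 0.99 and 0.92, and with and without an E-box 1.01 and 0.92. These differences were not tested. ETS letters stand before both Mrps22 and Mrpl52 in the windows printed above, which were chosen for their ratios. Myc, whose product binds E-boxes, had 59.3 FPKM in WT and 169 FPKM in KO.

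Mitoribosome proteins that go by other symbols were also higher in KO, all 7 of those found, where 48.3% of expressed genes were. Chchd1 had 91.0 and 204 FPKM (ratio 2.24) and Ict1, a peptidyl-tRNA hydrolase built into the large subunit, had 28.2 and 62.3 FPKM (ratio 2.21). Gadd45gip1 had 29.5 and 57.1 FPKM (ratio 1.94), and Ptcd3 of the small subunit had 64.1 and 101 FPKM (ratio 1.58). Aurkaip1, Mrp63 and the GTP-binding protein Dap3 were at ratios of 1.55, 1.53 and 1.38. These genes had a median log2 ratio of 0.66 and after the length adjustment of 0.67, and 2 of 7 passed 2-fold (28.6%, against 12.3% of all genes).

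The other genes of mitochondrial translation had medians in the same direction, with lower values and more spread before the length adjustment. In the list of mitoribosome assembly factors, 26 of 27 were higher in KO and 4 passed 2-fold (14.8%, near the 12.3% of all genes), with a median log2 ratio of 0.66. The methyltransferase Rnmtl1 (15.3 and 33.3 FPKM) and C1qbp (229 and 481 FPKM) were highest, and the helicase Dhx30 (27.8 and 23.3 FPKM) was lowest. Ybey (2.07 and 2.70 FPKM) was next lowest at a pseudocount of 1 FPKM, while at 0.1 FPKM Ddx28, Mpv17l2 and Mrm1 were lower, with log2 ratios of 0.30, 0.31 and 0.35 beside 0.37. Of 16 translation factors 14 were higher and 3 passed 2-fold (18.8%), with a median of 0.61. The elongation factor Tufm (8.73 and 21.8 FPKM) and the release factor Mtrf1 (3.87 and 10.4 FPKM) were highest, while the initiation factors Mtif3 (5.44 and 5.20 FPKM) and Mtif2 (29.0 and 22.2 FPKM) were lower in KO. Of 17 mitochondrial aminoacyl-tRNA synthetases 14 were higher and 3 passed 2-fold (17.6%), with a median of 0.64. Their transcripts are longer than those of the members, with list medians of 1894 bases for the assembly factors, 2290 for the translation factors and 3336 for the synthetases. After the length adjustment the median log2 ratios were 0.43, 0.61 and 0.71, against 0.55 for the mitochondrial ribosomal protein genes, and the SDs were 0.36, 0.41 and 0.44 against 0.47. The order of the lists thus turned with the adjustment for the translation factors and the synthetases. Because the adjusted values of the members rose with length, this order is not free of the lengths of the lists. Yars2 had 23.6 and 62.2 FPKM and Cars2 had 15.1 and 33.7 FPKM, whereas Vars2 had 7.56 and 6.48 FPKM and Lars2 had 405 and 349 FPKM.

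Genes for the upkeep and transcription of mitochondrial DNA were more divided. Of 19 found, 15 were higher, 2 of them past 2-fold (10.5%, near the share of all genes), and 1 was at least 2-fold lower, with a median of 0.63. Ssbp1, which binds single-stranded mitochondrial DNA, had 22.2 and 64.1 FPKM, and Tfam, which packs the DNA and starts its transcription, had 13.5 and 30.5 FPKM. The mitochondrial RNA polymerase Polrmt was at 14.9 and 11.48 FPKM and the DNA polymerase Polg had 17.9 and 6.32 FPKM. Both have long transcripts of 3755 and 7837 bases, and the length adjustment took Polrmt from a log2 ratio of −0.37 to −0.16 and Polg from −1.49 to −0.48. Polg2, the accessory subunit of the DNA polymerase, was at 4.69 and 5.96 FPKM.

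Respiratory chain and ATP synthase genes, many of which encode partners of the proteins the mitoribosome makes, had a median log2 ratio of 0.62, with 77 of 79 higher. This list and that of the cytosolic ribosome were taken by symbol, so not every gene in them need encode a subunit. Only 5 passed 2-fold, or 6.33%, which is below the 12.3% of all genes. Cox6a2 (0.296 and 3.60 FPKM) and Cox4i2 (4.63 and 19.5 FPKM) were highest, and Ndufa6 (298 and 241 FPKM) and Cox7a1 (11.8 and 1.21 FPKM) were lowest. Cox6a2 in WT and Cox7a1 in KO rested on about 1.0 and 2.3 estimated reads, under the 3-read floor, so the size of their ratios is not known. Cytosolic ribosomal protein genes had a median of 0.63, with 71 of 74 higher and 14, or 18.9%, past 2-fold. Among these Rpl39l was listed at 0 in WT and had 9.12 FPKM in KO, Rps4y2 had 4.37 and 22.4 FPKM, Rpl35 had 14.8 and 12.9 FPKM, and Rps28 had 4.42 and 1.58 FPKM. Many cytosolic ribosomal protein genes have near-identical copies, and their values are uncertain.

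The lists stood closer together among short transcripts. After the length adjustment the median was 0.12 for the cytosolic ribosomal protein genes and 0.19 for the respiratory chain, both of which are short (medians of 799 and 838 bases), compared with 0.55 for the mitochondrial ribosomal protein genes. Up to 1000 bases the unadjusted medians were closer, with 0.71 for 24 mitochondrial ribosomal protein genes, 0.62 for 52 cytosolic ones and 0.60 for 48 of the respiratory chain. From 1000 to 2000 bases they were 1.01, 0.66 and 0.66. DNA replication genes, which mark dividing cells, had a median log2 ratio of 0.97 and a length-adjusted median of 0.87. All 18 were higher in KO, where 48.3% of expressed genes were, and 8, or 44.4%, passed 2-fold, against 12.3% of all genes. Gins2 (23.6 and 84.9 FPKM) and Gins1 (18.4 and 63.0 FPKM) were highest, and Rrm1 (155 and 237 FPKM) and Pola1 (a log2 ratio of 0.46) were lowest. Whether the mitochondrial ribosomal protein genes moved with replication was not tested.

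**Figure D4:**
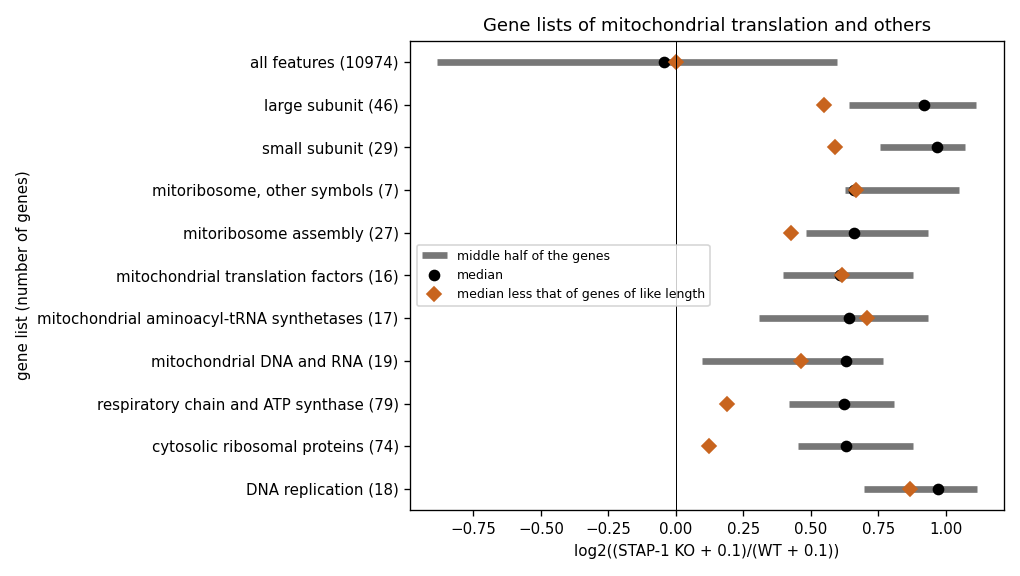
Median log2 ratio (black points), the interquartile range (grey bars) and the median after subtraction of the length bin (orange diamonds) for each gene list, with the number of expressed genes in brackets. Adjusted values of the members rose with length, so adjusted medians of lists of unlike length are not compared free of it. Both subunits of the mitoribosome lie above the other lists of mitochondrial genes before the adjustment, and the adjusted medians of the respiratory chain (0.19) and the cytosolic ribosome (0.12) fall closer to 0 than those of the subunits (0.55 and 0.59), while those of the translation factors (0.61), the mitoribosome proteins of other symbols (0.67), the synthetases (0.71) and DNA replication (0.87) lie above them.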

How the data were processed

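RNA from 1 WT and 1 STAP-1 KO LSC library was sequenced. The authors aligned reads to mm10 with TopHat 2.0.13 and Bowtie2 2.2.3 and deposited FPKM values from Cuffnorm 2.2.1 for 23284 genes; the gene annotation was not given in the sources used here. FPKM holds no read counts, so depth was estimated from the spacing of values under 0.3 FPKM: 46.3% and 46.7% of these came within 0.01 of a whole read.

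Ratios were computed in Python 3.11.15. Counts past 2-fold needed 0.1 FPKM in both libraries with no pseudocount, and log2 ratios used a pseudocount of 0.1 FPKM and a mean of at least 1 FPKM. No test was possible with 1 library per genotype. Loci came from GENCODE M21 (GRCm38) and lengths from RefSeq, matched by symbol. Exon overlaps of the transcript used for each member with any other gene (at least 75 bases) and copies of at least 200 bases at 97% identity (BLAST 2.17.0) were noted: 24 members had the former and 15 the latter. The length step was tested on simulated data. The members and lists were chosen with earlier results of these data known. Named genes were, per subunit, the 5 highest and 5 lowest ratios, the 3 highest levels and those under 1 FPKM, and of each other list the 2 highest and 2 lowest (pseudocount of 1 FPKM). Alternatives changed the pseudocount, filter, floor, cut-off, scaling, length and GC adjustment, and membership. Some markers of other lineages are not reported here.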

Additional observations from a re-analysis of the deposited data

How the results depend on the processing

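No paired analysis was possible because each genotype had 1 library, and no library could be left out. The count of members at least 2-fold higher was 30 as reported, where 12.3% of all genes passed. It was 13 after subtraction of the length bin (11.4% of all genes) and 12 after that of length and GC bins. At a 1.5-fold cut-off it was 68 (25.6% of all genes) and at a 4-fold cut-off 0 (2.4%). With bins from the longest transcript of any kind it was 18, and with bins of genes at 5 FPKM or more it was 13 (both chosen after seeing the data). The count at least 2-fold lower, 0 as reported, was 1 with the last of these: Mrpl23, at about 1.3 estimated reads in each library.

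The large subunit median log2 ratio of 0.92 became 0.55, 0.63, 0.65 and 0.56 under the length, length and GC, any-kind transcript and 5 FPKM bins, and the small subunit median of 0.97 became 0.59, 0.57, 0.61 and 0.59. The difference of −0.05 between them turned to 0.053 with length and GC and to 0.039 with any-kind transcripts. Making the summed FPKM equal raised the log2 ratio of every gene, member or not, by 0.10 and the count of members to 42. The share of all genes past 2-fold under this and the remaining settings is not given here. With members placed by structure the difference between the subunits was −0.076, and without the 15 members with a copy it was −0.069. Past 2-fold were 20 of 52 members without the 24 with overlapping exons, and 24 of 61 without those with a copy. A pseudocount of 1 FPKM gave 25, and setting the median of all genes to 0 gave 36. Settings without a length adjustment kept the large subunit median between 0.90 and 1.02 and the small between 0.94 and 1.07. Depth limits Mrpl23 (about 1.3 estimated reads in each library) and Mrps36 (about 12 in WT and 28 in KO), and the lack of replicates limits every statement.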
